A study of Mus musculus with 11 samples.

Results

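Expression of 7 marker genes of cold-sensing and low-threshold C-fibre neurons was examined in sensory neurons of mice with an oral tumour and of sham mice. The genes were Th, Tafa4, Slc17a8, Zfp521, Gpm6a, Cdh8 and Foxp2, and they were chosen by name as markers listed for these neurons. They are 7 of 55401 genes listed in each count file, and all 7 were among the 16817 genes that had enough reads to be tested. The tissue was the trigeminal ganglion, the cluster of sensory neurons that serves the face and mouth. Neurons labelled through their endings with the retrograde tracer DiI were purified by fluorescence-activated sorting and sequenced in bulk as poly(A)-selected RNA. The tumours were grown from MOC1, a line derived from mouse oral squamous carcinoma, and sham mice served as controls. The libraries comprised 3 from MOC1 females, 3 from MOC1 males, 3 from sham females and 2 from sham males, 6 against 5 in all. The DiI label and the sort were shared by both arms, and the sort gate was set with naive and DiI-injected sham mice. The labels give no strain, age or time after tumour implantation. They also do not say whether each library is a separate animal, so the p-values measure only the spread between these libraries.

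Low-threshold C-fibre mechanoreceptors are thin, unmyelinated afferents that respond to slow, gentle touch of the skin. In mice they are known for tyrosine hydroxylase, for the secreted protein TAFA4 and for the vesicular glutamate transporter VGLUT3, encoded by Slc17a8. Cold-sensing neurons are a separate small class defined by the ion channel Trpm8, and Foxp2 and Cdh8 are listed here as its markers. Several of these genes are not restricted to either class, since Gpm6a is widespread in neurons and Th also marks sympathetic neurons.

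None of the 7 genes passed the test between MOC1 and sham libraries. In edgeR's quasi-likelihood test with Benjamini-Hochberg adjustment over all genes and a threshold of 0.05, 0 of 7 were called. Of all genes tested, 6.62% were called in either direction. At an unadjusted p under 0.05 the markers numbered 3, Th, Gpm6a and Cdh8, against 18.5% of all genes, and DESeq2 called 0 of 7 as well. The median log2 fold change of the 7 genes, MOC1 over sham, was 0.21, beside -0.03 for all genes tested, with 5 genes above 0 and 2 below. The arms overlapped for each of the 7 genes, whereas 6.33% of all genes did not overlap. Levels are given in CPM, which sets the reads of a gene against all reads in genes of its library, with libraries scaled by the trimmed mean of M-values method.

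**Figure D1:**
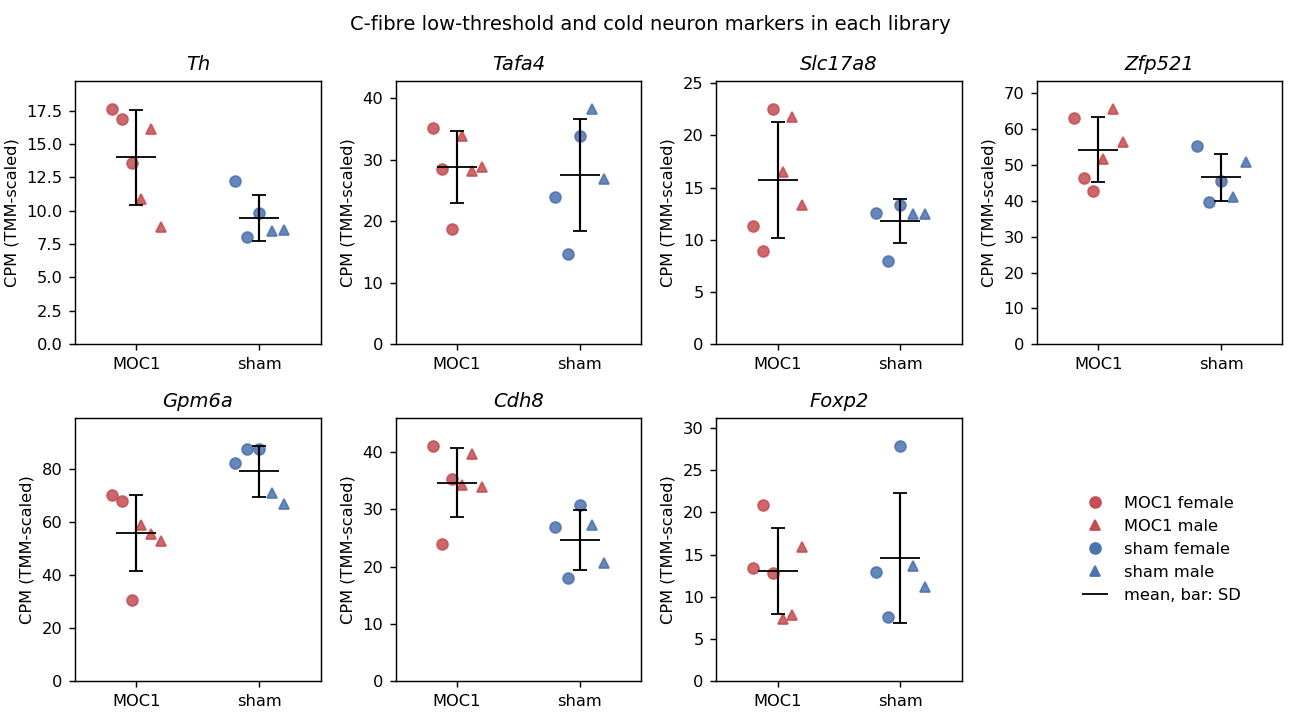
CPM of each marker (linear axis from 0) in every library, MOC1 left and sham right, circles for females and triangles for males, with the mean as a horizontal line and a bar of 1 SD (n = 6 and 5). The arms overlap in every panel, and Th, Gpm6a and Cdh8 show the clearest offsets, with means of 14 CPM in MOC1 against 9.43 CPM in sham for Th, 55.9 CPM in MOC1 against 79.1 CPM in sham for Gpm6a and 34.7 CPM in MOC1 against 24.7 CPM in sham for Cdh8.

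Among the genes that mark low-threshold C-fibres, Th had the largest difference. Th encodes tyrosine hydroxylase, the rate-limiting enzyme of catecholamine synthesis, and lies on chromosome 7 at 142892752 to 142931128 on the minus strand of GRCm38. In MOC1 libraries its lowest, median and highest levels were 8.80, 14.9 and 17.6 CPM. Sham libraries had 12.2, 8.0 and 9.86 CPM in females 1 to 3 and 8.46 and 8.56 CPM in males 1 and 3. The MOC1 libraries lay above every sham library in 4 of 6 cases, and MOC1 males 1 and 3 fell inside the sham range. Th averaged 14 ± 3.55 CPM in MOC1 libraries and 9.43 ± 1.72 CPM in sham libraries (SD, n = 6 and 5). The log2 fold change was 0.59 ± 0.24 (SE; 95% interval 0.08 to 1.10), with an adjusted p of 0.183 in edgeR. Th had 133 to 254 counts per library. Counting alone gives a coefficient of variation of 7.5% at that depth, beside 30.4% observed over all libraries.

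Sympathetic neurons also express Th, and their markers were examined for that reason. Of 9 sympathetic markers, 3 had 0 counts in every library, namely Dbh, Hand2 and Phox2a. Dbh encodes dopamine beta-hydroxylase, which makes noradrenaline, and a count of 0 allows up to 3 counts, or 0.18 to 0.279 CPM depending on the library. The summed level of the 9 markers was 2.0 to 8.44 CPM in MOC1 libraries and 3.08 to 24.9 CPM in sham libraries. Of the 9 markers, 2 had enough reads to be tested. The highest sum belonged to sham female 1, whose Th level of 12.2 CPM was also the highest of the sham arm. That library also had the highest summed level of endothelial and mural markers, at 1435 CPM. The part of either sum in the Th values was not tested.

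Of 14 further catecholamine genes, for synthesis, transport and breakdown, 10 had enough reads. In edgeR 0 of these 10 passed in either direction, beside 6.62% of all genes tested. DESeq2 called 1 higher, Qdpr, beside 648 of 16817 genes tested. Ddc, which converts L-DOPA to dopamine, averaged 0.0957 ± 0.234 CPM in MOC1 libraries and 0.681 ± 0.726 CPM in sham libraries. The MOC1 mean lay below the floor of 0.18 to 0.279 CPM, and the adjusted p was 0.379 in edgeR. Without sham female 1, Ddc did not have enough reads to be tested. Pnmt, the adrenaline-forming enzyme, was at 0 counts throughout, and the noradrenaline transporter gene Slc6a2 had at most 1 count in any library. Qdpr, which regenerates the tetrahydrobiopterin cofactor of Th, had the smallest p of the group. It averaged 126 ± 11.7 CPM in MOC1 libraries and 102 ± 12.6 CPM in sham libraries, a log2 fold change of 0.31 ± 0.10 with an adjusted p of 0.0723 in edgeR and 0.0446 in DESeq2. It was also called by edgeR without MOC1 male 3. Gch1, the first enzyme of that cofactor's synthesis, had 5.61 ± 2.35 CPM in MOC1 libraries and 5.5 ± 3.26 CPM in sham libraries.

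Tafa4 encodes a secreted chemokine-like protein of low-threshold C-fibres that dampens pain after injury in mice. Its levels in MOC1 libraries were 18.7, 28.7 and 35.1 CPM as lowest, median and highest. Sham females had 24.0, 14.7 and 33.9 CPM, and sham males 1 and 3 had 38.2 and 26.9 CPM. Sham libraries therefore held both the highest and the lowest value, and the MOC1 values lay entirely between them. Its log2 fold change was 0.05 ± 0.21 (SE; 95% interval -0.39 to 0.49), with an adjusted p of 0.944 in edgeR. Its direction changed with the library left out, and it was -0.09 without sham female 2.

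Relatives and binding partners of TAFA4 behaved unevenly. Tafa4 itself aside, 7 of 8 genes of the family and its partners reported here had enough reads, of which 1 rose and 2 fell in edgeR. DESeq2 called 2 higher, adding Nrxn2, and 2 lower. Of all genes, edgeR called 2.34% higher and 4.28% lower, and DESeq2 called 648 of 16817 higher and 908 lower. Tafa3 rose to 28.6 ± 2.47 CPM in MOC1 libraries, against 18.7 ± 2.85 CPM in sham libraries, with a log2 fold change of 0.61 ± 0.16 and an adjusted p of 0.0231 in edgeR. Its call was lost when any of 5 libraries was left out (MOC1 female 1, MOC1 male 1, sham females 2 and 3 and sham male 1; highest adjusted p 0.0917), and the fold change was 0.33 when libraries were scaled to neuronal markers. Tafa5 fell to 25.3 ± 4.59 CPM in MOC1 libraries, against 45.3 ± 2.96 CPM in sham libraries, with a log2 fold change of -0.83 ± 0.15 and an adjusted p of 0.00142 in edgeR. Lrp1, a large endocytic receptor reported as a partner of TAFA4, fell by 0.60 ± 0.13 on the log2 scale, with an adjusted p of 0.00645 in edgeR. Tafa1 had 23.6 ± 7.10 CPM in MOC1 libraries and 22.1 ± 6.64 CPM in sham libraries, and Tafa2 had 21.2 ± 9.82 CPM in MOC1 libraries and 16.8 ± 5.18 CPM in sham libraries. Fpr1, a formyl peptide receptor, had 0 counts in every library. Scaling libraries to satellite glia markers put the fold changes of Tafa5 and Lrp1 at 0.26 and 0.53, where the median of all genes was 1.09. On the neuronal scale that median was -0.30.

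Slc17a8 encodes VGLUT3, which loads glutamate into synaptic vesicles. MOC1 libraries had 8.92, 14.9 and 22.5 CPM as lowest, median and highest. Sham females had 12.6, 8.0 and 13.3 CPM, and both sham males had 12.5 CPM. MOC1 female 3 and MOC1 males 1 and 2 lay above every sham library, and the other 3 MOC1 libraries lay within the sham range or level with its upper end. Slc17a8 had a log2 fold change of 0.39 ± 0.26 (SE; 95% interval -0.16 to 0.94), with an adjusted p of 0.499 in edgeR. It was 0.15 without MOC1 female 3, the library with the highest level. Among the other glutamate-loading genes, 1 of 4 rose and 0 fell in edgeR, where 2.34% of all genes were called higher and 4.28% lower. That gene was Slc17a6, which encodes VGLUT2, the main vesicular transporter of sensory neurons, at 385 ± 39.0 CPM in MOC1 libraries and 314 ± 28.8 CPM in sham libraries. Its log2 fold change was 0.30 ± 0.08 with an adjusted p of 0.0304 in edgeR, and the call was lost in 7 of 11 fits that left out a library, MOC1 females 2 and 3, MOC1 male 3, sham females 1 and 2 or sham males 1 and 3 (highest adjusted p 0.0945). Scaling to neuronal markers also ended it, at 0.03, where the median of all genes was -0.30. Slc17a7 had a log2 fold change of 0.39 ± 0.30, with an adjusted p of 0.573 in edgeR.

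Zfp521 encodes a zinc finger transcription factor that binds the early B-cell factors, or EBF proteins. MOC1 libraries had 42.7, 54.2 and 65.6 CPM as lowest, median and highest. Sham females had 55.3, 39.8 and 45.7 CPM, and sham males 1 and 3 had 41.2 and 51.0 CPM. MOC1 female 1 and MOC1 males 2 and 3 exceeded the highest sham library, and the other 3 lay within the sham range. Its log2 fold change was 0.21 ± 0.14 (SE; 95% interval -0.08 to 0.50), with an adjusted p of 0.490 in edgeR. Of its 5 paralogue or partner genes, 2 rose and 0 fell in edgeR, beside 2.34% of all genes called higher and 4.28% lower. Ebf1 rose to 270 ± 14.1 CPM in MOC1 libraries, against 215 ± 9.42 CPM in sham libraries, a log2 fold change of 0.33 ± 0.07 with an adjusted p of 0.00474 in edgeR. Ebf3 rose to 159 ± 9.23 CPM in MOC1 libraries, against 122 ± 13.4 CPM in sham libraries, with a log2 fold change of 0.38 ± 0.09 and an adjusted p of 0.00931. Both calls held without any single library, and both were lost when libraries were scaled to neuronal markers, with fold changes of 0.06 and 0.10. The median of all genes on that scale was -0.30. Zfp423, the paralogue of Zfp521, had 19.7 ± 1.29 CPM in MOC1 libraries and 15.7 ± 3.40 CPM in sham libraries, and its adjusted p was 0.356 in edgeR.

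Gpm6a was the marker with the smallest p, and its level was lower in MOC1 libraries. It encodes M6a, a membrane glycoprotein of the proteolipid family found in neuronal processes, and lies on chromosome 8 at 54954843 to 55060871 on the plus strand of GRCm38. MOC1 libraries had 30.4, 57.1 and 70.3 CPM as lowest, median and highest. Sham females had 82.2, 87.7 and 87.6 CPM, and sham males 1 and 3 had 71.1 and 66.8 CPM. The MOC1 libraries lay below every sham library in 4 of 6 cases, and MOC1 females 1 and 2 lay above the lower of the sham males. Gpm6a averaged 55.9 ± 14.3 CPM in MOC1 libraries and 79.1 ± 9.64 CPM in sham libraries (SD, n = 6 and 5). The log2 fold change was -0.48 ± 0.16 (SE; 95% interval -0.82 to -0.14), with an adjusted p of 0.0951 in edgeR. Without MOC1 female 3, the lowest library, it was -0.31 ± 0.09 with an adjusted p of 0.0507. Gpm6a was called lower when no filter on low counts was used (adjusted p = 0.00415), when libraries were scaled to neuronal markers (adjusted p = 0.00795) and by limma voom with quality weights (adjusted p = 0.0493).

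Gpm6b, which is expressed in glia as well as neurons, differed between arms by more. Gpm6b, the closest relative of Gpm6a, fell to 427 ± 106 CPM in MOC1 libraries, against 908 ± 80.6 CPM in sham libraries, with a log2 fold change of -1.09 ± 0.14 and an adjusted p of 3.84e-05 in edgeR. Satellite glia envelop sensory neurons. Of 16 markers of them, 14 fell and 0 rose in edgeR, beside 4.28% of all genes called lower and 2.34% higher. The summed level of the 16 was 3306 to 5872 CPM in MOC1 libraries and 9040 to 10740 CPM in sham libraries, with no overlap. With the log2 of that sum as a covariate, the Gpm6a log2 fold change was 0.70 ± 0.41, with an adjusted p of 0.723 in edgeR. Since the sum did not overlap between arms, that fit cannot separate a part of the glial share in the Gpm6a values from the tumour. In bulk RNA fewer cells of a type cannot be told apart from less RNA per cell. Scaling libraries to the satellite glia markers gave log2 fold changes of 0.59 for Gpm6a and -0.02 for Gpm6b, where the median of all genes was 1.09.

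Of the cold neuron markers, Cdh8 was higher in 5 of 6 MOC1 libraries than in any sham library. It encodes cadherin-8, a type II classical cadherin that joins cells at synapses, and lies on chromosome 8 at 99024471 to 99416471 on the minus strand of GRCm38. MOC1 libraries had 23.9, 34.8 and 41.1 CPM as lowest, median and highest. Sham females had 26.9, 18.0 and 30.7 CPM, and sham males 1 and 3 had 27.2 and 20.6 CPM. Only MOC1 female 2, at 23.9 CPM, fell inside the sham range. Cdh8 averaged 34.7 ± 6.06 CPM in MOC1 libraries and 24.7 ± 5.22 CPM in sham libraries (SD, n = 6 and 5). The log2 fold change was 0.49 ± 0.18 (SE; 95% interval 0.11 to 0.87), with an adjusted p of 0.132 in edgeR. Leaving out 1 library at a time gave 0.40 to 0.60 and adjusted p-values of 0.0581 to 0.315.

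Other type II cadherins and the catenins that tether them were called in both directions. Of 16 such genes, 1 rose and 6 fell, again beside 2.34% of all genes called higher and 4.28% lower. Ctnna2, the neuronal alpha-catenin, rose by 0.32 ± 0.07 on the log2 scale, to 410 ± 19.4 CPM in MOC1 libraries, against 328 ± 21.3 CPM in sham libraries, with an adjusted p of 0.00536 in edgeR. The genes that fell were Cdh6, Cdh11, Cdh19, Cdh20, Ctnna1 and Ctnnd2, with log2 fold changes of -0.37 (Cdh11) to -1.61 (Cdh20). Cdh19 is a marker of Schwann cell precursors and glia, and it fell to 103 ± 24.9 CPM in MOC1 libraries, against 204 ± 46.0 CPM in sham libraries, with an adjusted p of 0.000343 in edgeR. The Ctnnd2 call was lost without MOC1 female 2, sham female 2 or sham male 3 (highest adjusted p 0.0588). Cdh9 and Cdh18 had values above 0 that did not pass, at 0.56 ± 0.26 and 0.43 ± 0.19. Under scaling to neuronal markers the Ctnna2 fold change was 0.04, where the median of all genes was -0.30. On that scale 8 of the 16 genes were called lower, beside 2313 of 16817 genes tested. Under scaling to satellite glia markers 10 were called higher and 0 lower, beside 10115 higher and 50 lower of 16817 genes tested.

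Foxp2, a forkhead transcription factor, varied most from library to library. MOC1 libraries had 7.33, 13.1 and 20.9 CPM as lowest, median and highest. Sham females had 12.9, 7.64 and 27.9 CPM, and sham males 1 and 3 had 13.6 and 11.2 CPM. The arms overlapped over most of their range, sham female 3 lay above every MOC1 library, and the highest value was 3.80 times the lowest. Over all libraries the coefficient of variation was 44.6%, where counting alone gives 6.88%. Foxp2 had a log2 fold change of -0.14 ± 0.31 (SE; 95% interval -0.79 to 0.51), with an adjusted p of 0.888 in edgeR. Without sham female 3 it was 0.16. Of the other Foxp genes, 2 of 3 had enough reads and 0 passed in edgeR, beside 6.62% of all genes tested. Foxp1 had 23.5 ± 4.45 CPM in MOC1 libraries and 26.9 ± 10.1 CPM in sham libraries, and Foxp4 had 10.2 ± 3.21 CPM in MOC1 libraries and 11.8 ± 2.81 CPM in sham libraries.

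**Figure D2:**
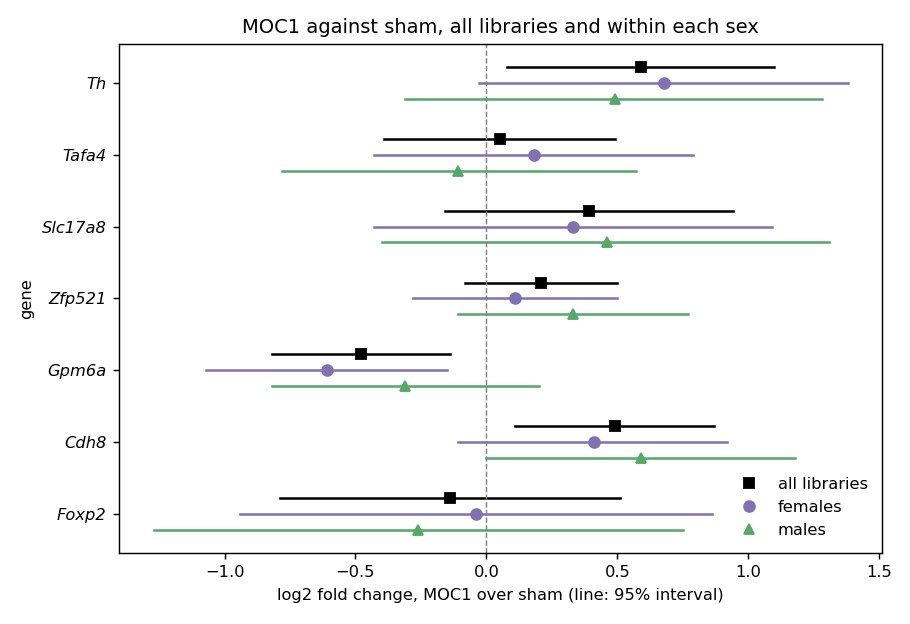
Log2 fold change of each marker, MOC1 over sham, with 95% intervals, for all libraries (squares), females (circles) and males (triangles), from edgeR. The intervals for males span 0 for every gene but Cdh8, whose lower end lies just above 0 and rounds to it. The all-library intervals of Th, Gpm6a and Cdh8 do not reach 0. The female and male values lie within each other's intervals for each gene.

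Other genes known for cold sensing were set beside the 7. Of 10 cold-sensing channels reported here, 0 rose and 0 fell in edgeR, with 5 above 0, 5 below and a median log2 fold change of 0.06. At an unadjusted p under 0.05 there were 3, Trpm8, Kcnk9 and Grik2, beside 18.5% of all genes. Grik2 was lower in MOC1 libraries, with a log2 fold change of -0.55 and an adjusted p of 0.209 in edgeR. DESeq2 called 0, and edgeR called 1 higher without sham male 1, which was Trpm8, 1 with no low-count filter, and 1 without the 3 libraries named further on, which was Kcnk9. Trpm8, the cold and menthol receptor that defines the class, averaged 459 ± 106 CPM in MOC1 libraries and 339 ± 102 CPM in sham libraries. Its log2 fold change was 0.49 ± 0.16, the same size as that of Cdh8, and its adjusted p was 0.0788. Kcnk9, a potassium leak channel, had 14.8 ± 4.50 CPM in MOC1 libraries and 8.73 ± 3.26 CPM in sham libraries, a log2 fold change of 0.75 ± 0.30 with an adjusted p of 0.172 in edgeR.

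Of 7 further low-threshold C-fibre genes, 1 rose and 0 fell in edgeR, beside 2.34% and 4.28% of all genes. DESeq2 called 2 higher, adding Cacna1h, beside 648 of 16817 genes tested. Piezo2, the principal touch channel, rose to 653 ± 48.0 CPM in MOC1 libraries, against 540 ± 44.8 CPM in sham libraries, a log2 fold change of 0.26 ± 0.07 with an adjusted p of 0.0223 in edgeR. That call was lost without MOC1 male 3, sham female 3 or sham male 1 (highest adjusted p 0.0588). Cacna1h, the T-type calcium channel of these fibres, had a log2 fold change of 0.43 ± 0.13, and its adjusted p was 0.0510 in edgeR and 0.0253 in DESeq2. Without MOC1 female 3, MOC1 male 2 and sham female 1 together it was 0.00835 in edgeR, and the call was also gained without MOC1 female 3 or sham female 1 alone. Ret, the receptor subunit for the GDNF family, had 0.19 ± 0.07 with an adjusted p of 0.155. Piezo2 is also expressed by myelinated touch neurons. Scaling to neuronal markers put Piezo2 at -0.02, where the median of all genes was -0.30.

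Of 8 transcription factors listed here for the C-fibre lineage, 0 rose and 1 fell in edgeR, beside 2.34% and 4.28% of all genes. DESeq2 called 1 higher as well, Pou4f1 (adjusted p 0.0282, beside 0.0745 in edgeR), where it called 648 of 16817 genes higher. Maf, which acts in touch neurons, fell to 59.4 ± 9.81 CPM in MOC1 libraries, against 91.7 ± 18.0 CPM in sham libraries, a log2 fold change of -0.62 ± 0.14 with an adjusted p of 0.00791 in edgeR. Its fold change was 0.49 under scaling to satellite glia markers, where the median of all genes was 1.09. Runx1, which sets the identity of nonpeptidergic and low-threshold C-fibres, had 163 ± 17.6 CPM in MOC1 libraries and 148 ± 17.9 CPM in sham libraries. Its adjusted p was 0.526, and that of Meis2 was 0.147 with a log2 fold change of 0.47 ± 0.18.

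**Figure D3:**
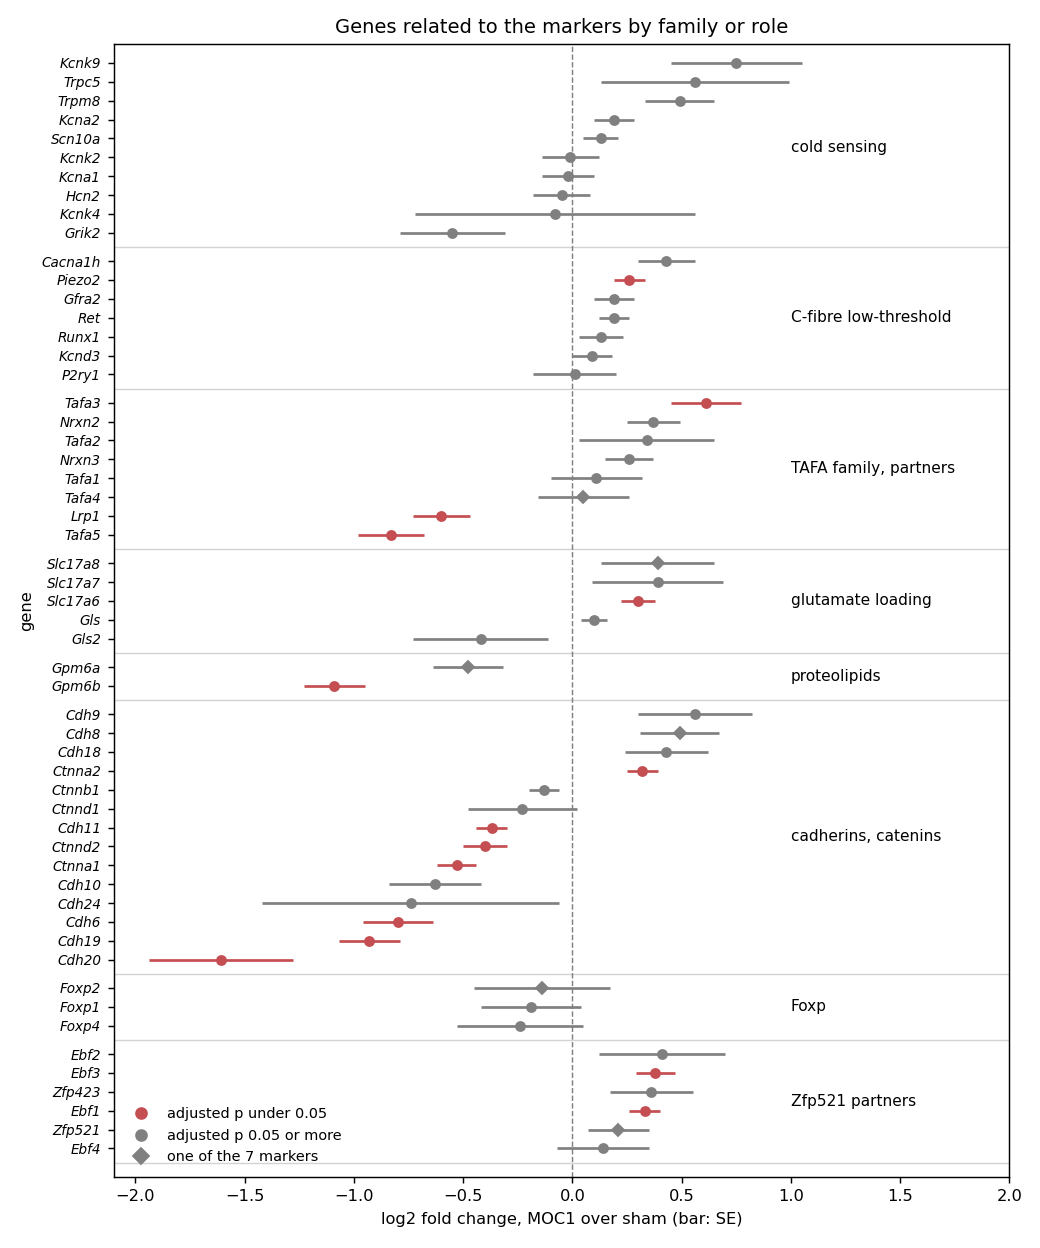
Log2 fold change, MOC1 over sham, with its SE, for genes related to the markers by family or role. Genes drawn averaged at least 5 CPM over all libraries. Red marks an adjusted p under 0.05 in edgeR. Diamonds mark Tafa4, Slc17a8, Zfp521, Gpm6a, Cdh8 and Foxp2, and Th is not drawn. On this scale Gpm6b sits at -1.09, the called cadherins lie between -0.37 and -1.61, and the diamonds lie between -0.48 and 0.49.

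The sorted neurons were a mixture, and the share of RNA from neurons and glia differed between arms. Summed CPM of 20 pan-neuronal markers was 12720 to 13240 in MOC1 libraries and 9748 to 11670 in sham libraries, and that of 13 Schwann cell markers averaged 975 ± 66.4 CPM in MOC1 libraries and 1287 ± 103 CPM in sham libraries. Fibroblast markers summed to 65.1 ± 3.89 CPM in MOC1 libraries and 126 ± 35.4 CPM in sham libraries. Each of these 3 sums and the satellite glia sum did not overlap between arms and had an adjusted p of 0.00540 in a two-sided exact permutation test over libraries, Benjamini-Hochberg adjusted over 10 marker lists, where 0.00216 is the smallest unadjusted p possible. In the same test the peptidergic sum, 3363 to 4577 CPM in MOC1 libraries and 2890 to 3213 CPM in sham libraries, had an adjusted p of 0.00866, and the nonpeptidergic and itch sum had 0.0108. The other sums gave 0.0990 for endothelial and mural, 0.325 for myelinated, 0.378 for sympathetic and 0.924 for macrophage markers. Individually, 12 of 20 pan-neuronal markers rose and 0 fell in edgeR. That count was 6 without MOC1 female 2, sham female 2 or sham male 3 and 7 without MOC1 female 3. Of the other neuron classes, 4 of 9 peptidergic markers, 2 of 13 nonpeptidergic and itch markers and 1 of 13 myelinated neuron markers rose, and 1 myelinated marker fell, all in edgeR, beside 0 of the 7 genes described here and 2.34% of all genes higher and 4.28% lower. DESeq2 called 6, 4 and 2 markers of these classes higher, beside 648 of 16817 genes tested. The peptidergic count was 1 without MOC1 female 2 or sham male 3 and 2 without sham male 1, the nonpeptidergic count 4 without MOC1 male 2, and the myelinated count 4 without MOC1 male 1. The difference between these classes was not tested. Gene counts ran from 10757426 to 16703797 per library, and genes with at least 1 count from 14180 to 19078.

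The scale against which the libraries are set moved the markers together. Scaling to the pan-neuronal markers put the median of all genes at -0.30 and that of the 7 markers at -0.07, and 1 marker, Gpm6a, was then called lower at -0.75 ± 0.18. Th, Slc17a8 and Cdh8 were at 0.31, 0.11 and 0.22 on that scale, and Tafa4 and Zfp521 turned to -0.21 and -0.07. Scaling to the satellite glia markers put the median of all genes at 1.09 and that of the markers at 1.29, with 7 of 7 called higher along with 10115 of 16817 genes tested. Each scaling shifts all genes by nearly the same amount, so the place of a gene relative to the median of all genes carries over. The 3 scales therefore count as 1 observation. The values of Gpm6a and Foxp2 lay below that median. Those of Th, Tafa4, Slc17a8, Zfp521 and Cdh8 lay above it.

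**Figure D4:**
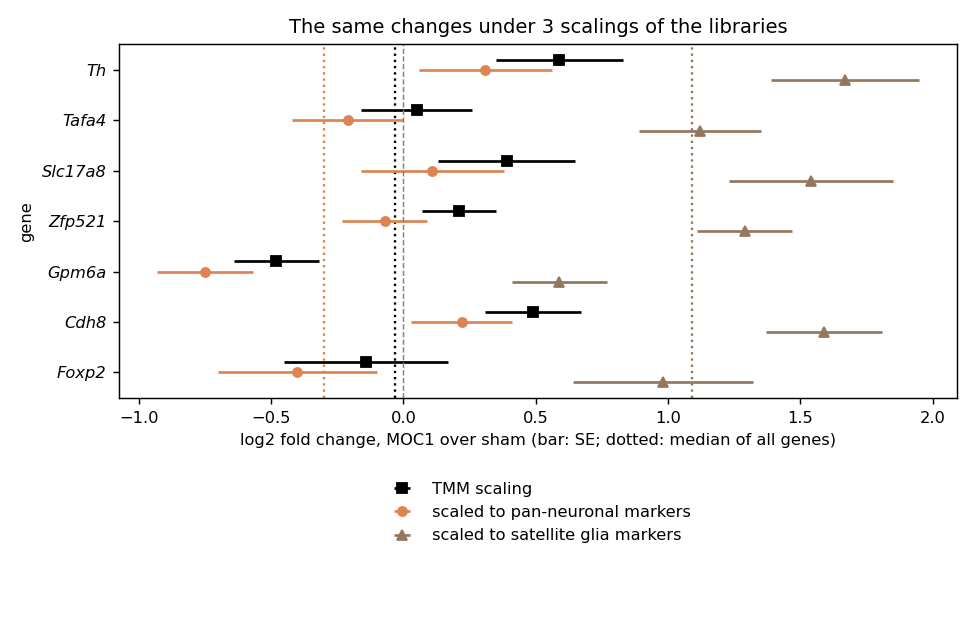
Log2 fold change of each marker, MOC1 over sham, with its SE, when libraries are scaled by the trimmed mean of M-values (squares), by pan-neuronal markers (circles) or by satellite glia markers (triangles); dotted lines give the median of all genes on each scale (-0.03, -0.30 and 1.09). By construction each gene moves with its median line, so the place of Gpm6a left of it carries over between the 3 scales.

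Splitting the libraries by sex gave no call either. Of the 7 genes, 0 passed within females, where 4.48% of all genes were called, and 0 passed within males, where 1.25% were called. At an unadjusted p under 0.05 there was 1 marker within females, Gpm6a, beside 17.3% of all genes, and 1 within males, Cdh8, beside 7.95%. Th had log2 fold changes of 0.68 ± 0.33 in females and 0.49 ± 0.38 in males, with adjusted p-values of 0.312 and 0.879 in edgeR. Gpm6a had -0.61 ± 0.22 in females and -0.31 ± 0.24 in males, with adjusted p-values of 0.135 and 0.882, and Cdh8 had 0.41 ± 0.25 in females and 0.59 ± 0.28 in males, with adjusted p-values of 0.422 and 0.620. The difference between the sexes was tested as an interaction, where each of the 7 genes had an adjusted p of 1. No gene of the 16817 passed that test in edgeR, and 708 had an unadjusted p under 0.05 (4.21%). Of the 7, Tafa4 alone differed in sign between the sexes, at 0.18 ± 0.29 in females and -0.11 ± 0.32 in males, and the difference was 0.29 ± 0.43.

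Within each sex the arms separated for Th and for Gpm6a, a comparison added after the values had been seen. Th was 13.6 to 17.6 CPM in MOC1 females and 8.0 to 12.2 CPM in sham females. It was 8.80 to 16.1 CPM in MOC1 males and 8.46 and 8.56 CPM in sham males. Gpm6a was 30.4 to 70.3 CPM in MOC1 females and 82.2 to 87.7 CPM in sham females. It was 53.0 to 58.7 CPM in MOC1 males and 66.8 and 71.1 CPM in sham males. Of all genes tested, 8.32% separated in both sexes in the same direction, 3.14% higher and 5.18% lower. Slc17a8, Zfp521 and Cdh8 separated among males, as Th and Gpm6a did, but not among females. Of all genes tested, 27.9% separated among males and 21.3% among females, whatever they did in the other sex. With 2 sham males such a separation is common.

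Between females and males, with tumour held in the model, none of the 7 genes passed, and each had an adjusted p of 1 in edgeR, with 0 of 7 at an unadjusted p under 0.05. Of all genes, 7 were called (0.0416%) and 722 had an unadjusted p under 0.05 (4.29%). Foxp2 had the largest value, 0.50 ± 0.31 for females over males. Th had 0.34 ± 0.24 and Tafa4 -0.27 ± 0.21.

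**Figure D5:**
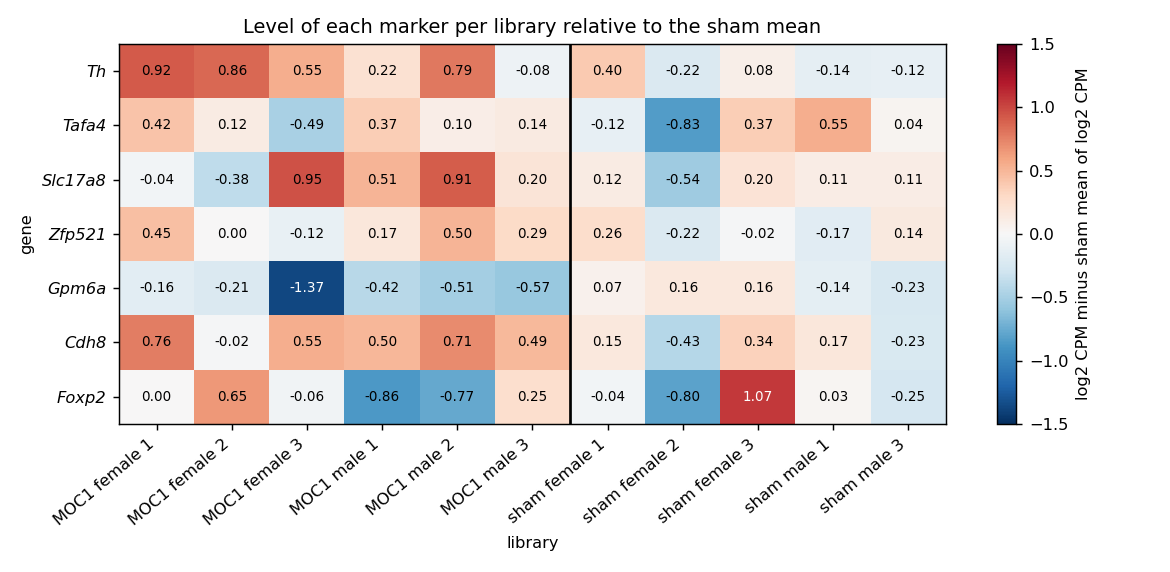
Log2 CPM of each marker in each library minus the mean log2 CPM of the sham libraries, MOC1 libraries left of the black line and sham libraries right of it (red higher, blue lower). Sham female 2 is blue for 6 of the 7 genes and red for Gpm6a, Gpm6a is blue in each MOC1 library, and MOC1 female 3 holds the deepest Gpm6a value of -1.37.

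The lowest and highest levels of the 7 genes fell on 7 of 11 libraries, with 6 of them in sham female 2. Sham female 2 had the lowest level of 5 markers, Th, Tafa4, Slc17a8, Zfp521 and Cdh8, and the highest of Gpm6a. It also had the highest satellite glia sum, at 10740 CPM, and the second lowest pan-neuronal sum, at 10320 CPM, and their part in these levels was not tested. Without sham female 2, Th had a log2 fold change of 0.51 ± 0.26, Cdh8 0.40 ± 0.18, Slc17a8 0.29 ± 0.27 and Zfp521 0.17 ± 0.15. MOC1 female 3 had the lowest Gpm6a and the highest Slc17a8, and MOC1 female 1 had the highest Th and Cdh8. MOC1 female 3 and MOC1 male 2 had the fewest genes detected, 14180 and 15327, and sham female 1 had the highest summed level of endothelial and mural markers, 1435 CPM beside at most 398 CPM in any other library. Without these 3 libraries 0 of 7 markers were called, and Gpm6a had -0.32 ± 0.10 with an adjusted p of 0.0684, Th 0.59 ± 0.25, Cdh8 0.47 ± 0.20 and Slc17a8 0.09 ± 0.24.

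On a scale of CPM per kilobase of exon, averaged over the 11 libraries, Gpm6a was the most abundant of the 7 at 20.7 ± 5.25. Zfp521 followed at 7.23 ± 1.23, Th at 5.04 ± 1.53 and Tafa4 at 4.96 ± 1.25 CPM per kilobase. Cdh8 had 3.90 ± 0.973, Slc17a8 2.95 ± 0.982 and Foxp2 0.842 ± 0.376 CPM per kilobase. Gpm6a exceeded Zfp521 in all 11 libraries and Slc17a8 exceeded Foxp2 in all 11, while Th exceeded Tafa4 in 6 of 11, so that this pair did not differ beyond its spread. The order depended on the length used. With the length of the longest coding transcript in place of all exons, Tafa4 ranked second at 12.9 ± 3.24 CPM per kilobase and Th ranked below Cdh8, at 6.11 ± 1.86 CPM per kilobase against 6.56 ± 1.64.

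The genes whose pattern over the 11 libraries was nearest to each marker were found by the root-mean-square difference in centred log2 CPM among 11304 genes with a mean of at least 5 CPM. Nearest to Th were Spr (0.227) and Gnpda2 (0.231), and nearest to Gpm6a were Ndrg2 (0.133) and Chic1 (0.134). Nearest to Cdh8 were Zfp950 (0.184) and Frmd3 (0.185), to Slc17a8 St6galnac5 (0.177) and BC024978 (0.210), and to Tafa4 Ccne1 (0.190) and Nubp2 (0.202). Zfp521 had the closest pair, Dzip3 (0.130) and Acer3 (0.136), and Foxp2 the most distant, Mad2l1bp (0.325) and Mkx (0.336). These distances share the same libraries, depth and split into arms, and they describe likeness only.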

How the data were processed

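One count table per library was deposited, in which the authors gave unnormalized, strand-specific read counts for every gene, per the file headers. Processing notes from the submitters name Trimmomatic 0.35 for trimming, STAR 2.7.1a for alignment, RSEM, and the mouse build GRCm38 (mm10). No source used here gives the release of the gene annotation, and 54349 of 55401 gene identifiers matched GENCODE M21, which supplied exon lengths. Rows that name no gene held 18.7 to 21.5% of counts and were left out.

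Tests were run with edgeR 4.0.16 under R 4.3.3 (TMM scaling, filterByExpr over the 4 condition-by-sex groups, quasi-likelihood F test, sex as an additive term, Benjamini-Hochberg adjustment over 16817 genes, threshold 0.05). Within-sex and interaction contrasts came from a fit of the 4 groups, which assumes that they share 1 estimate of the spread. Intervals for fold changes are 95% t intervals, from the additive fit for all libraries and from the 4-group fit within each sex. DESeq2 1.42.0 and limma 3.58.1, other scalings and filters and leaving out libraries were alternatives. The pipeline was tested on simulated counts. No pair of libraries agreed within sampling noise (chi-square per degree of freedom 13.3 to 39.6). Counting errors and the floor of 3 counts cover counting error only.

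The 7 markers, the related gene lists and the cell type markers were chosen with earlier results of these data known. Named genes were the 7 markers, genes of each list that passed and up to 2 with the smallest p, and the 2 nearest in pattern. Gch1, Pnmt, Slc6a2, Slc17a7, Tafa1, Tafa2, Zfp423, Cdh9, Cdh18, Grik2, Runx1, Ret and Nrxn2 were named after their values were seen. Symbols follow the files, where Tafa4 is the gene also called Fam19a4. Some genes of the related lists are not reported here.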

Additional observations from a re-analysis of the deposited data

Results flagged for a closer look

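In 4 of 34 groups of libraries checked, 1 library lay far from the others, and chance alone does so in about 1 in 20 groups. Slc17a8 was 8.0 CPM in sham female 2, below the 12.5 to 13.3 CPM of the other sham libraries. The summed level of the sympathetic neuron markers was 8.44 CPM in MOC1 female 2, where the other MOC1 libraries had 2.0 to 4.09 CPM. The same sum was 24.9 CPM in sham female 1, where the other sham libraries had 3.08 to 6.58 CPM. The summed level of the endothelial and mural markers was 1435 CPM in sham female 1, where the other sham libraries had 235 to 398 CPM.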

How the results depend on the processing

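The 7 markers gave 0 calls in either direction under DESeq2, median-of-ratios and total-count scaling, a filter of 1 CPM in 5 libraries, no sex term, a replicate block, a glial marker covariate and each library left out. Main counts were 394 genes higher and 719 lower. DESeq2 gave 648 higher. Pan-neuronal scaling gave 30 higher, 2313 lower and 1 marker lower (Gpm6a), with Tafa4 at -0.21 and Zfp521 at -0.07. Satellite glia scaling gave 10115 higher, 50 lower and 7 markers higher, with Gpm6a at 0.59 and Foxp2 at 0.98. By construction these scalings shift all genes. No filter and voom with quality weights gave 1 marker lower (Gpm6a). No filter also gave 10 genes higher and 43 lower in the sex interaction. The glial marker covariate, whose values did not overlap between arms, gave 0 higher and 0 lower (1197 genes at an unadjusted p under 0.05 in edgeR, DESeq2 not run with it), with Slc17a8 at -0.49 and Gpm6a at 0.70. For the others the cause was not tested. Leaving out 1 library gave 250 (without MOC1 female 2; 258 without sham male 3) to 427 higher, 559 to 740 lower, and log2 fold changes of 0.49 to 0.67 for Th, -0.09 to 0.19 for Tafa4, 0.15 to 0.52 for Slc17a8, 0.13 to 0.29 for Zfp521, -0.56 to -0.31 for Gpm6a, 0.40 to 0.60 for Cdh8 and -0.32 to 0.16 for Foxp2. In the interaction it gave 0 genes higher, 0 to 2 lower, and -0.62 to 0.13 for Slc17a8, -0.40 to 0.01 for Cdh8 and -0.12 to 0.87 for Foxp2.

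Replicate numbers did not pair the libraries (correlations of deviations -0.036 to 0.055 over 15 pairs, 0 over 0.1). With the number as a replicate block 359 genes were higher, 731 lower and 0 markers called, and Gpm6a had -0.53 with an adjusted p of 0.0537. Counting alone gives coefficients of variation of 3.12 to 7.5% for the markers, beside 17.1 to 44.6% observed over all libraries.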
